A study of Phalaenopsis aphrodite with 54 samples.

Results

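PaAP2-7, PabHLH-3 and PaMYB-2 are transcript contigs of the orchid Phalaenopsis aphrodite that encode transcription factors of the AP2, bHLH and MYB families. The study named these contigs together for their levels in pollinia, so that their pollinia values on these arrays are a description and were not tested. For their pollinia-specific pattern the study also shows quantitative PCR, a measurement made apart from the array probes. The PCR values were not used here. The contigs were found by their identifiers, PATC138345, PATC140443 and PATC152106, and make up 3 of the 43662 contigs on the array. Each has 2 probes, designed by the study in separate stretches of the contig, toward its 5′ and its 3′ end.

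In orchids the pollen of a flower is packed into pollinia, waxy masses borne at the tip of the column, the organ in which male and female parts are fused. AP2 proteins bind DNA through the AP2 domain, and in Arabidopsis members of the family act in floral organ identity, ovule development and hormone and stress responses. bHLH proteins bind DNA as dimers, and MYB proteins through MYB repeats. In Arabidopsis, factors of both families direct the development of the tapetum, the cell layer that feeds developing pollen, and of the pollen itself. The individual functions of the orchid genes are not annotated in the files.

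RNA was measured on 54 Agilent arrays with 1 labelled sample on each. On 41 arrays the RNA had been amplified before labelling, and these cover 20 conditions. The tetraploid hybrid Sogo Yukidian 'V3' (below, V3) gave the separated pollinia, column, lip, petal, sepal and pedicel, the last comprising carpel and ovary, and also small buds, large buds, open flowers and flowers 1, 3, 8 and 15 days after pollination. P. aphrodite (Pa) gave young inflorescence, inflorescence, bud, open flower, stalk, leaf and root. On the other 13 arrays cDNA was labelled directly, without amplification, from flower, leaf and root of V3 and of Pa, 6 conditions in all. Each condition had 2 arrays, and Pa leaf had 3 in each set. V3 is 1 cultivar that differs from P. aphrodite in ploidy as well as in parentage, the probes were designed on P. aphrodite sequence, and the labels do not say which plants gave which array.

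Levels are log2 normalized intensities. An intensity under 20 was set to 20, which is 4.32 on the log2 scale, so that levels at this floor have no order among themselves. A probe is called well above background where the scanner software marked at least 0.5 of its spots so. For each contig the brighter probe was used, and levels of different genes are not compared, since probes differ in brightness for the same amount of RNA. The 75th percentile of intensity was 2335 to 8107 on amplified and 446.2 to 1077 on unamplified arrays. The 2 pollinia arrays had the lowest amplified values, 2459 and 2335, against a median of 5973. At that percentile normalization therefore raised them most. Of spots, 71.2% to 80.7% on amplified and 73.7% to 82.7% on unamplified arrays were well above background, and 0 were saturated. In 14 of the 20 amplified conditions the arrays differed by less than the duplicate spots of 1 array, and they were counted as 1 sample. This left 26 samples, and p-values measure the spread between samples that may be technical.

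The dissection labels were checked against genes the study describes as organ markers, which are not independent of these arrays. PaAG-2 and PaAG-3, MADS box genes of the AGAMOUS type, had mean levels of 16.3 and 17.3 in column. In pollinia PaAG-2 was at the floor on both arrays and PaAG-3 was at 9.50. The floral MADS box genes PaPI-1, PaAP3-2, PaSEP-1, PaSEP-2 and PaSEP-3 were all lower in pollinia than in the other floral organs, but none was at the floor. PaPI-1 had a level of 12.3 in pollinia against 16.8 in column, and PaSEP-1 had 8.46 against 14.9.

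All 3 genes had their highest level of the 20 amplified conditions in pollinia. PaAP2-7 was at 16.89 and 16.93 on the 2 pollinia arrays, PabHLH-3 at 15.96 and 15.90, and PaMYB-2 at 15.98 and 15.98. Of 35652 contigs well above background in at least 1 condition, 26.7% were also highest in pollinia, so that this rank is shared by many contigs. Within the 8 tissues of pollinia, the other 5 floral organs, leaf and root, the specificity measure SPM of pollinia was 1 for PaAP2-7, 0.998 for PabHLH-3 and 1.00 for PaMYB-2. SPM is the level in 1 tissue divided by the length of the vector of levels over all tissues, on the linear scale, and is 1 where no other tissue has any signal. Over all 20 conditions it was 0.997, 0.990 and 0.978. These SPM values rest on the brighter probe of each gene. On the other probe of PabHLH-3 pollinia was only 1.73-fold above stalk and 1.84-fold above leaf. SPM was not computed on that probe, so that the values given for this gene describe its brighter probe.

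**Figure D1:**
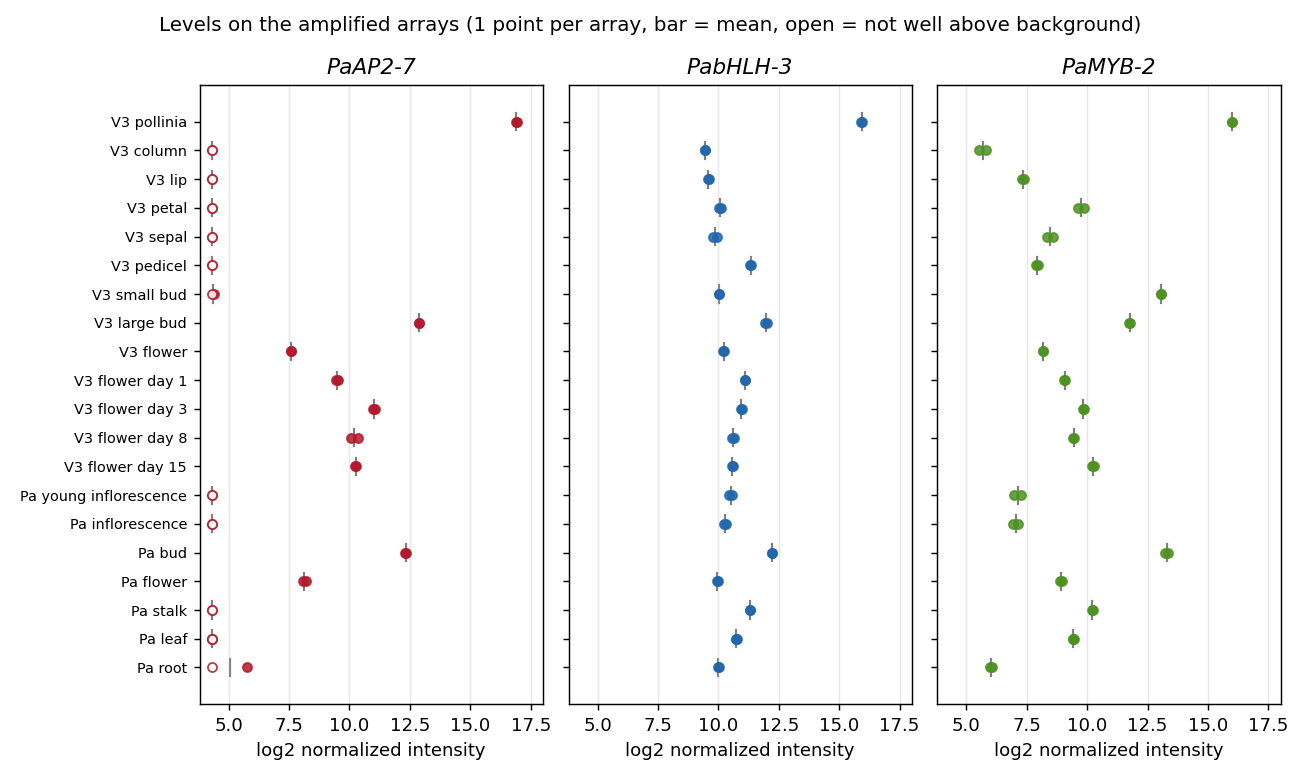
Log2 normalized intensity (x axis) of each gene in the 20 amplified conditions (y axis), with 1 point per array, the mean as a bar and open points for arrays not well above background. On the probes plotted pollinia is the highest condition for each gene. V3 large buds come second for PaAP2-7 and Pa buds for PabHLH-3 and PaMYB-2. PaAP2-7 lies at the floor of 4.32 in the separated floral organs other than pollinia.

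PaAP2-7, the AP2 family member, was well above background on both arrays in pollinia, V3 large buds, Pa buds and whole flowers, before and after pollination, and in no other amplified condition. On both of its probes the level was at the floor and not well above background on every array of 8 conditions. These were column, lip, petal, pedicel, stalk, leaf, inflorescence and young inflorescence. Against each of these 8 conditions the pollinia level was at least 6166-fold higher, where the floor stands in for the dim side. Sepal was at the floor on the probe used, but 1 of its 2 arrays was well above background on the other probe, at 5.15. In root the arrays were at 5.77 and at the floor, and in small buds at 4.38 and at the floor, with 1 of 2 arrays well above background in each.

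Apart from that root array, levels between these extremes came from whole flowers and buds. V3 large buds were at 12.89 on both arrays, which is 16.2-fold below pollinia, and Pa buds at 12.36 and 12.31, which is 23.9-fold below. V3 open flowers were at 7.58 and 7.60 and Pa open flowers at 8.20 and 8.06, or 0.156% and 0.227% of the pollinia intensity. The ranges of arrays did not overlap between adjacent conditions in the order from pollinia down to V3 open flower, with the exception of day 15 and day 8 after pollination. In such bulk samples fewer cells of a type and less RNA per cell cannot be told apart.

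The 2 probes of PaAP2-7 gave the same order of the highest conditions. On the other probe pollinia was at 17.35 and 17.40, large buds at 12.98 and 12.94, and V3 open flowers at 7.22 and 7.18. Pearson's r between the probes' means was 0.997 over the 20 conditions and 0.996 over the 19 without pollinia. This is a description, since the same arrays carry both probes and many conditions lay at or near the floor on both.

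PabHLH-3, the bHLH family member, was well above background on all 41 amplified arrays. Outside pollinia its levels spanned a narrow range, from 9.44 and 9.44 in column to 12.20 and 12.21 in Pa buds. Pollinia exceeded Pa buds by 13.2-fold, V3 large buds by 15.5-fold, pedicel by 24.2-fold and column by 90.2-fold. Stalk and leaf were not lowest. Stalk was at 11.32 and 11.33 and leaf at 10.74, 10.74 and 10.76, above petal at 10.03 and 10.12, sepal at 9.93 and 9.77 and lip at 9.59 and 9.55. Pedicel and stalk overlapped, as did petal and small buds, and day 15 overlapped both day 8 and young inflorescence. The other neighbours in the order did not overlap.

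The other probe to PabHLH-3 gave a different order outside pollinia, so that the differences of this gene on amplified arrays are given below for both probes. The brighter probe is called probe 2 in the data and the dimmer one probe 1. On probe 1 pollinia was again the highest condition, at 10.72 and 10.71, but exceeded the next condition, stalk, by only 0.79 on the log2 scale, where probe 2 exceeded its next condition, Pa buds, by 3.73. Pa buds, second on probe 2, ranked 17 of 20 on probe 1, at 8.06 and 7.94. Leaf came next after stalk on probe 1, at 9.80 to 9.86. The probes' means had r = 0.623 over the 20 conditions and r = 0.328 over the 19 without pollinia. For PaMYB-2 both values were 1.00. Which of the 2 probes lies toward which end of the contig is not given in the sources used here.

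**Figure D2:**
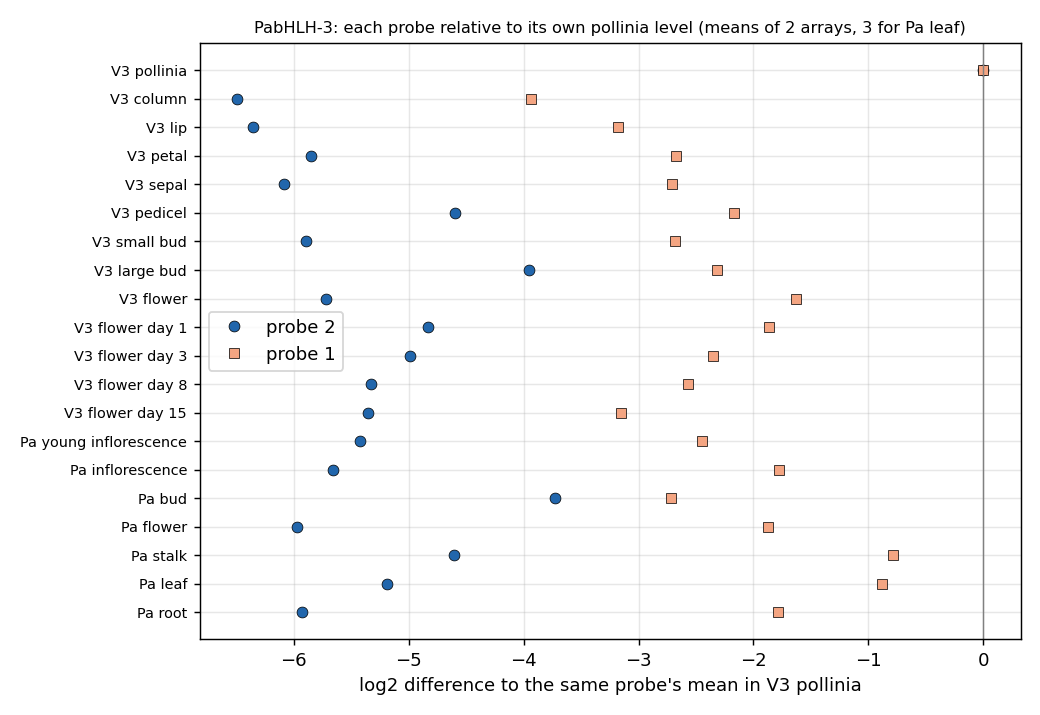
Log2 difference (x axis) of each amplified condition (y axis) to the same probe's mean in pollinia, for the 2 probes of PabHLH-3, as means of 2 arrays or 3 for leaf. Both probes are highest in pollinia, but on probe 1 stalk lies 0.79 below pollinia and Pa buds 2.72, while on probe 2 Pa buds lie closest, at 3.73.

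PaMYB-2, the MYB family member, was also well above background on all 41 amplified arrays, and it had the widest range of the genes that were never at the floor. After pollinia came Pa buds at 13.21 and 13.36, small buds at 13.04 and 13.04, and large buds at 11.77 and 11.74. These lay 6.48-, 7.67- and 18.7-fold below pollinia. The lowest level was in column, the organ that carries the pollinia, at 5.52 and 5.81, which is 1272-fold below. Root was next lowest, at 6.05 and 5.98. Petal, at 9.61 and 9.86, was the highest of the separated organs other than pollinia, followed by sepal at 8.34 and 8.58, pedicel at 7.90 and 7.95 and lip at 7.30 and 7.37. Stalk was at 10.18 and 10.24 and leaf at 9.45, 9.43 and 9.40. Of the 19 neighbouring pairs in the order, 4 overlapped: day 15 with stalk, day 3 with petal, day 8 with leaf, and inflorescence with young inflorescence.

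The genes differed in how far the signal outside pollinia was concentrated in 1 condition. Over the 19 other conditions PaAP2-7 had its highest SPM, 0.792, in V3 large buds. PabHLH-3 and PaMYB-2 had theirs in Pa buds, at 0.529 and 0.726. Pairwise correlations of the mean levels over the 20 conditions were r = 0.761 for PaAP2-7 and PabHLH-3, 0.700 for PaAP2-7 and PaMYB-2 and 0.768 for PabHLH-3 and PaMYB-2. Without pollinia they were 0.615, 0.536 and 0.607. Each gene was read on its brighter probe. The genes are read on the same arrays, and conditions share batches and normalization, so that these values are descriptions.

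The comparisons below used no pollinia array for a difference. Each was fitted with limma over all contigs, with Benjamini-Hochberg adjustment, and a gene was called where the adjusted p was under 0.05 and the difference over 4-fold. Where the arrays of a condition were counted as 1 sample, the condition has no spread of its own in the fit. This holds for column, pedicel and Pa flowers and for both sides of each comparison of V3 buds, open flowers and pollinated flowers. There the SE and p take the spread from the 6 conditions kept apart, which limma draws toward the spread over all contigs tested. The SE and p assume that the other conditions vary alike. These 6 are petal, lip, sepal, Pa buds, Pa inflorescence and Pa young inflorescence. For PaAP2-7 each of them except Pa buds was at the floor on both arrays, with an SD of 0. Only Pa buds, with an SD of 0.033, gave spread of this gene. The small SE and p of PaAP2-7 therefore say little about how its replicates vary.

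Bud growth in V3 separated the genes. Large buds were compared with small buds, both scanned in 1 batch. PaAP2-7 went from 4.38 and the floor in small buds to 12.89 on both arrays in large buds, a log2 difference of 8.54 ± 0.07 (SE, adjusted p = 8.89e-10 in limma). This gene was called higher, and 1.97% of all contigs tested were. The size depends on the floor, since the small-bud side was near background: it was 9.95 with a floor of 5 and 6.76 with the normexp background correction, and it was called with both. PabHLH-3 went from 10.04 on both arrays to 11.94 and 12.02, a difference of 1.94 ± 0.11 (adjusted p = 7.76e-06) or 3.84-fold, under the 4-fold limit. On its other probe the difference was 0.37. PaMYB-2 moved the opposite way, from 13.04 on both arrays to 11.77 and 11.74, a difference of -1.29 ± 0.20 (adjusted p = 0.00198) or 2.44-fold, which was not called. Of the 2 bud stages PaMYB-2 was thus higher in small and PaAP2-7 in large buds, and the arrays of the stages did not overlap for any of the 3 genes.

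Opening of the V3 flower went with lower levels of the 3 genes on the probes used. PaAP2-7 fell from 12.89 to 7.58 and 7.60, by 5.30 on the log2 scale (SE 0.07, adjusted p = 2.59e-09 in limma). PaMYB-2 fell from 11.77 and 11.74 to 8.16 on both arrays, by 3.59 (SE 0.20, adjusted p = 1.52e-06). Both were called lower, as were 10.6% of all contigs. PabHLH-3 went from 11.94 and 12.02 to 10.22 and 10.21, a difference of -1.76 ± 0.11 (adjusted p = 2.86e-06) that was under 4-fold. The direction turned on its other probe, where the flower was 0.69 higher than the large bud. Open flowers and large buds were scanned on different days, so that stage and scan batch cannot be told apart here.

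**Figure D3:**
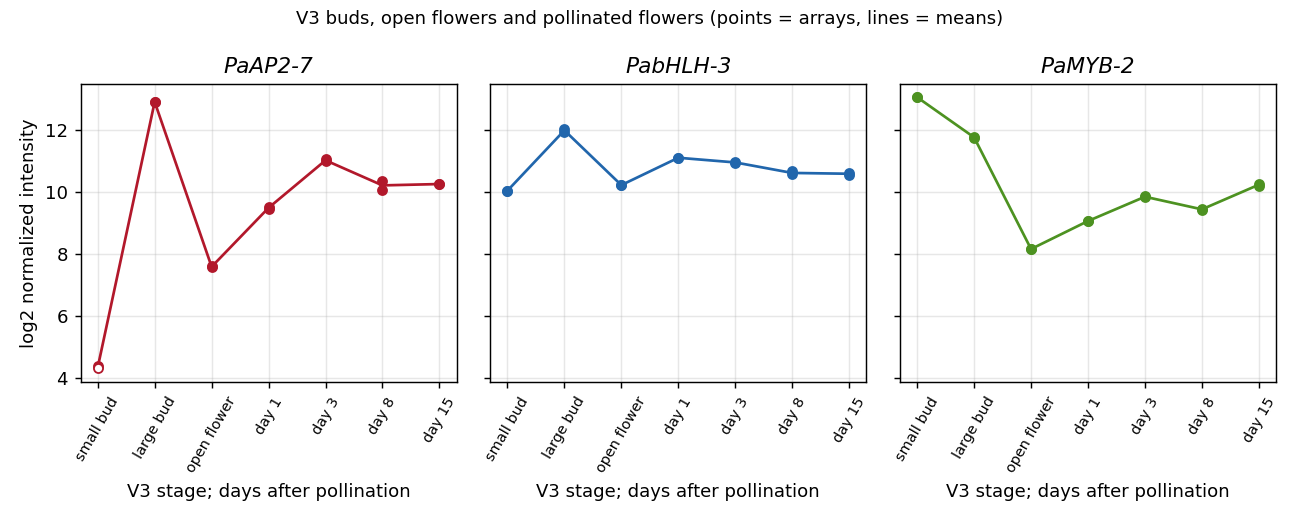
Log2 normalized intensity (y axis) of each gene in V3 buds, open flowers and flowers after pollination (x axis, not to scale in time), with points for arrays, open where not well above background, and lines through the means. PaAP2-7 rises from the floor to 12.89 between small and large buds, PaMYB-2 starts at 13.04, and both are lowest after the bud stages in the open flower.

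In P. aphrodite buds were compared with inflorescence and open flowers with buds. Inflorescence and bud arrays were spread over 2 scan batches with 1 array of each in both, so that each difference could also be read within a batch. PaAP2-7 was at the floor on both inflorescence arrays and at 12.36 and 12.31 in buds, which is at least 258-fold higher (adjusted p = 1.55e-11 in limma). On the log2 scale the difference of 8.01 became 9.93 with a floor of 5 and 6.47 with the normexp correction. PaMYB-2 was at 6.93 and 7.14 in inflorescence and at 13.21 and 13.36 in buds, a log2 difference of 6.24 ± 0.14 (adjusted p = 5.82e-09), or 6.28 and 6.21 within the batches. Both genes were called higher, against 6.46% of all contigs. PabHLH-3 was at 10.24 and 10.31 in inflorescence and was 1.93 ± 0.08 higher in buds (adjusted p = 1.61e-07), or 3.81-fold. On its other probe buds were 0.94 lower than inflorescence.

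From bud to open flower in P. aphrodite all 3 genes were called lower, against 8.11% of all contigs. PaAP2-7 fell by 4.20 to 8.20 and 8.06 (SE 0.06, adjusted p = 2.55e-09 in limma). PaMYB-2 fell by 4.37 to 8.87 and 8.95 (SE 0.17, adjusted p = 2.45e-07). PabHLH-3 fell by 2.24, from 12.20 and 12.21 to 9.94 and 9.98 (SE 0.09, adjusted p = 3.38e-07). Within the 1 scan batch that held both stages the differences were -4.23, -4.30 and -2.24. The call of PabHLH-3 rests on the probe: on the other one the flower was 0.84 higher than the bud, and with the mean of both probes the difference was -0.70 and was not called.

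After pollination PaAP2-7 was higher in the V3 flower at each time point than in the open flower at 7.58 and 7.60. The arrays were at 9.51 and 9.46 on day 1, at 11.05 and 10.98 on day 3, at 10.07 and 10.35 on day 8 and at 10.25 on both on day 15. The differences were 1.90 ± 0.07, 3.42 ± 0.07, 2.62 ± 0.07 and 2.66 ± 0.07 in that order, with adjusted p of 4.21e-07, 1.57e-08, 5.04e-08 and 3.57e-08 in limma. Day 1 was 3.72-fold and not called, while days 3, 8 and 15 were called higher at 10.73-, 6.14- and 6.32-fold. With arrays scaled to their 75th percentile, day 1 was also called, at 2.15, and days 8 and 15 were at 3.22 and 3.31. Of all contigs, 11.1% were called in either direction on day 1, and 7.62%, 8.75% and 11% were called higher on days 3, 8 and 15. The 4 comparisons share the open flower arrays.

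PaMYB-2 followed with smaller differences. From 8.16 on both open flower arrays it went to 9.05 and 9.07 on day 1, to 9.83 and 9.86 on day 3, to 9.42 and 9.45 on day 8 and to 10.20 and 10.26 on day 15. The differences of 0.90, 1.68 and 1.28 on days 1, 3 and 8, each with an SE of 0.20, were under 4-fold (adjusted p = 0.00507, 1.70e-04 and 8.76e-04 in limma). On day 15 the gene was called higher, by 2.07 ± 0.20 (adjusted p = 4.16e-05) or 4.20-fold. The call was lost with the normexp background correction, at 1.84, and with the other probe, at 1.99, while with arrays scaled to their 75th percentile day 3 was called, at 2.13, and days 8 and 15 were at 1.98 and 2.72.

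PabHLH-3 was not called at any of the 4 time points. On the probe used it was at 11.09 and 11.10 on day 1, at 10.97 and 10.92 on day 3, at 10.65 and 10.56 on day 8 and at 10.55 and 10.62 on day 15, all above the 10.22 and 10.21 of open flowers. The differences were 0.88, 0.73, 0.39 and 0.37, with an SE of 0.11 each (adjusted p = 2.30e-04, 6.10e-04, 0.0133 and 0.0178 in limma). On the other probe they were -0.23, -0.72, -0.94 and -1.52, so that the direction after pollination is not settled for this gene.

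Other genes that the study named for pollinia were read in the same flowers. PaMdS-1 and PaMdP-1 are MADS box genes of the M-delta type, a type expressed in pollen in Arabidopsis, and PabZIP-2 is a basic leucine zipper protein. PabZIP-2 had a mean level of 17.2 in pollinia and of 9.57 in open flowers, and PaMdS-1 had 15.6 and 5.63. In flowers on days 1, 3, 8 and 15 PabZIP-2 was at 10.3, 11.7, 11.1 and 12.1. PaMdS-1 was at 8.08 on day 1, at 10.6 on day 3 and at 14.4 on day 15, with day 8 between the last of these. PaMdP-1 was at 10.9 in open flowers and at 11.2, 12.3, 12.8 and 12.9 on the same days. Of these 3 genes, 1 was called higher on day 1, 2 on day 3, 1 on day 8 and 2 on day 15, and PaMdS-1 was among them each time. The share of all contigs called higher was 6% on day 1 and as given above on the other days. How much pollinia a pollinated flower held is not given, and its part in these differences was not tested. Open flowers share no scan batch with any of the pollinated flowers, so that pollination and scan batch cannot be told apart.

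**Figure D4:**
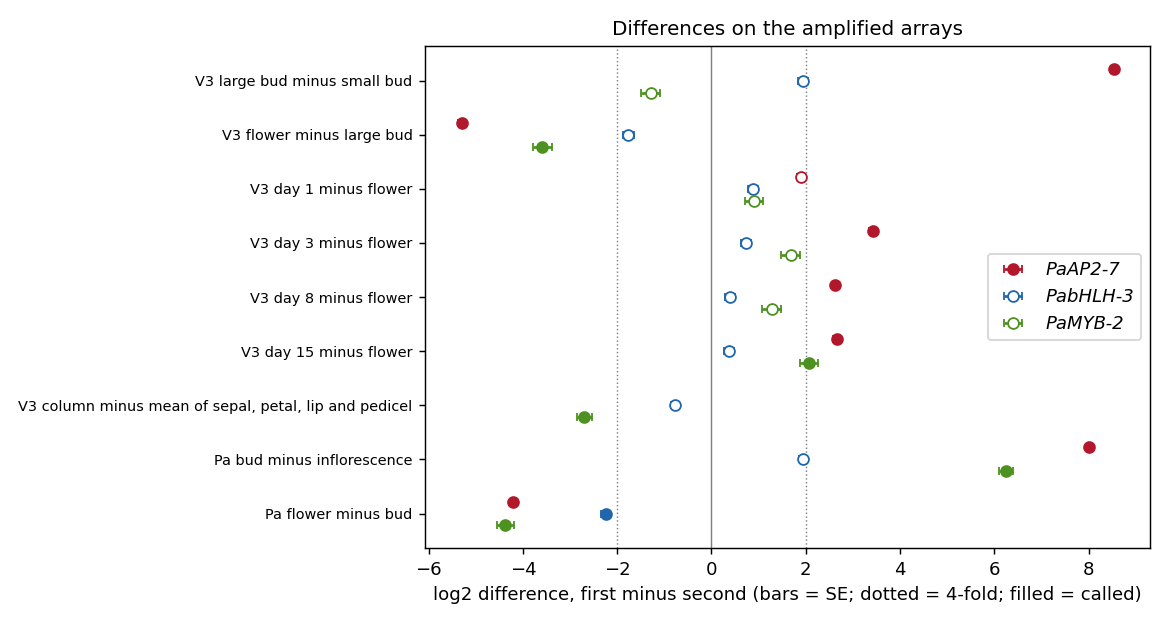
Log2 difference, first condition minus second (x axis), of each gene in 9 comparisons on amplified arrays (y axis), with the SE from limma as bars, dotted lines at 4-fold and filled points for called differences. PaAP2-7 has the widest differences, 8.54 from small to large buds and 8.01 from Pa inflorescence to bud, both against a side at or near the floor, and PaMYB-2 is the only one of the 3 with a called difference in column.

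Column was set against the mean of sepal, petal, lip and pedicel to ask whether the organ that bears the pollinia shared their signal. PaAP2-7 could not be tested, since none of these arrays was well above background on the probe used. PaMYB-2 was at 5.52 and 5.81 in column against a mean of 8.36 in the other organs, a difference of -2.70 ± 0.15 (adjusted p = 4.22e-06 in limma). It was called lower, as were 3.42% of contigs, but was not called with the normexp background correction, at -1.81. In the scan batch that held all 5 organs the difference was -2.90. PabHLH-3 was at 9.44 in column against a mean of 10.2, a difference of -0.77 ± 0.08 (adjusted p = 1.39e-04) that was not called, and -1.25 on its other probe. The markers PabZIP-2, PaMdS-1 and PaMdP-1 were at 10.2, the floor and 10.6 in column, against 17.2, 15.6 and 15.7 in pollinia. PabZIP-2 and PaMdP-1 differed by 0.41 and -0.25 in this comparison and were not called, and PaMdS-1 was not tested.

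Genes that the study named for the opposite pattern, high in floral organs and low in pollinia, gave a reference. PaMYB-4 and PabHLH-1, relatives of PaMYB-2 and PabHLH-3 by family, were at the floor on both pollinia arrays, while in column they were at 16.8 and 13.8. PaAP2-5 was at 10.72 in pollinia and 15.1 in petal. In the step from small to large bud PaMYB-4 was called higher, at least 307-fold against small buds at the floor (adjusted p = 4.75e-09 in limma), and PabHLH-1 by 2.46 ± 0.09 (adjusted p = 8.81e-07). Among these 5 contigs 2 were called higher in that step, against 630 of all 31962 contigs tested. On opening, 2 of the 5 were called higher and 2 lower, against 2267 and 3373 of all 31867 contigs tested. PaMYB-4 rose by 4.05 ± 0.12 (adjusted p = 3.94e-08) and PaAP2-5 by 2.99 ± 0.24 (adjusted p = 1.40e-05). PabHLH-1 fell by 4.29 (SE 0.09, adjusted p = 1.07e-08) and PaNAC-3, of the NAC family, fell by 3.29 (SE 0.37, adjusted p = 1.06e-04).

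The contigs whose levels followed each gene most closely were sought among 29196 that were well above background on both pollinia arrays, by Pearson's r of the means over the 20 conditions. For PaAP2-7 the 5 highest were PATC024902, PATC155194, PATC142684, PATC154819 and PATC154405, with r from 0.998 to 0.985, and 47 contigs had r over 0.95. The same 5 came first over the 19 conditions without pollinia, among 29151 candidates, with r from 0.998 to 0.977. PaAP2-7 was at or near the floor in 11 conditions, so that each r rests in part on their contrast with the others. PATC024902 was at the floor in 11 conditions and at 17.3 in pollinia, 13.7 in V3 large buds, 13.2 in Pa buds and 7.63 in V3 open flowers. For PaMYB-2 the highest was PATC099779, with r = 0.897, and 0.832 without pollinia, and the same 5 contigs came first by both measures. For PabHLH-3, on its brighter probe, the highest was PATC143152, with r = 0.952, but without pollinia it had 0.816, behind PATC156202 at 0.886. These contigs carry no gene name in the files, and the correlations share arrays and normalization with the genes.

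Signals were low on the unamplified arrays. Pollinia and buds were not among these samples. PaAP2-7 was between 4.32 and 4.35 on 12 of 13 arrays, and V3 leaf was at 6.33 on 1 array and at 4.33 on the other. The gene passed no filter in any comparison and was not tested.

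PabHLH-3 was well above background on all 13 unamplified arrays. It was at 6.26 and 6.38 in Pa flowers, at 6.96 and 7.72 in V3 flowers, from 7.58 to 7.88 in leaves of both genotypes and from 7.75 to 8.12 in roots. Pa flowers lay below every other array, and V3 flowers overlapped leaves. The difference of Pa flowers to the mean of leaf and root was -1.43 ± 0.28 (adjusted p = 0.125 in limma), that of V3 flowers was -0.58 ± 0.31 (adjusted p = 0.395), and V3 flowers exceeded Pa flowers by 1.02 ± 0.33 (adjusted p = 0.380). With every array as a replicate the adjusted p were 3.75e-05, 0.0223 and 0.00270, at the same sizes, all under 4-fold. On the other probe the differences were -1.26, -0.55 and 0.47. Leaving out 1 V3 flower array at a time, V3 flowers differed from leaf and root by -0.20 or -0.95.

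PaMYB-2 was also well above background on all 13 on the probe used. Leaves were highest, at 6.62, 6.97 and 6.24 in Pa and 6.51 and 6.53 in V3, flowers were at 5.84 and 5.42 in Pa and 5.80 and 6.07 in V3, and roots were lowest, at 4.75 and 4.86 in Pa and 4.56 and 5.32 in V3. On the other probe V3 roots were at 4.58 and 6.68, a mean of 5.63 beside 5.62 in V3 and 5.35 in Pa flowers, so that the V3 root arrays lay on either side of the flower arrays there. Flower minus the mean of leaf and root was 0.20 ± 0.45 in V3 and -0.08 ± 0.47 in Pa (adjusted p = 0.816 and 0.939 in limma), and V3 minus Pa flower was 0.31 ± 0.55 (adjusted p = 0.825). The contrast between genotypes of flower minus leaf and root was 0.28 for PaMYB-2 and 0.86 for PabHLH-3 (adjusted p = 0.898 and 0.550).

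**Figure D5:**
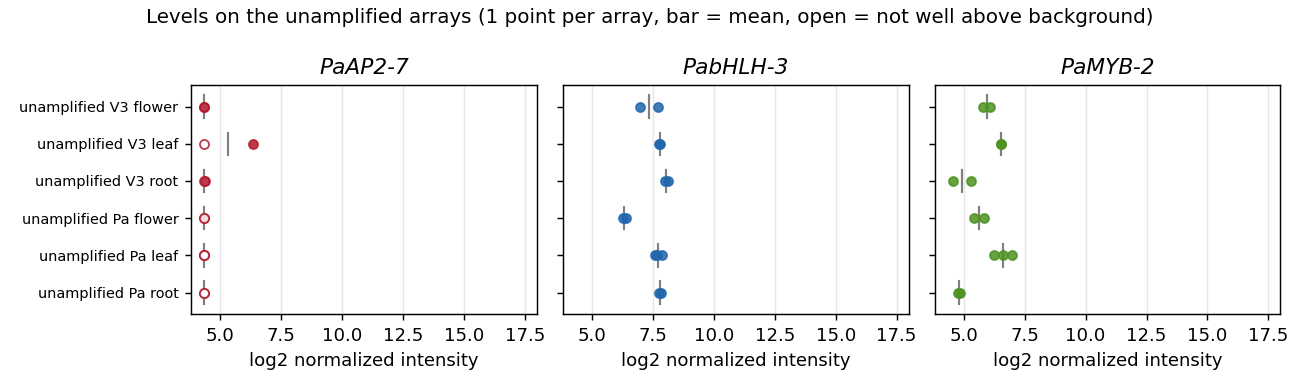
Log2 normalized intensity (x axis) of each gene in the 6 unamplified conditions (y axis), with 1 point per array, the mean as a bar and open points for arrays not well above background. PaAP2-7 lies at or near the floor on all but 1 array, Pa flowers are the lowest condition of PabHLH-3, and roots are the lowest of PaMYB-2 on the probe plotted.

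These comparisons had 1 residual degree of freedom, since the arrays of 5 of 6 conditions were counted as 1 sample, and 0% of contigs were called in each. In limma 7367, 8989 and 4526 contigs had an unadjusted p under 0.05 in V3 flower against leaf and root, Pa flower against leaf and root, and V3 against Pa flower. With every array as a replicate 2402, 3303 and 1804 contigs were called. A difference that missed the threshold in this set is therefore not shown to be absent.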

How the data were processed

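The members and gene lists were chosen with earlier results of these data known. The authors deposited spot intensities of 54 arrays, written by Feature Extraction, which subtracts background and corrects trends within an array. A deposited table gives log2 values as well. That table equals the log2 processed intensity less a constant for each array, to within 2.71e-06, so it was not quantile normalized, although the study's methods name that step. It was used as an alternative only.

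Processed intensities were raised to a minimum of 20 and log2 transformed. Spots marked as outliers were left out, the 2 spots of a probe were averaged, and amplified and unamplified arrays were quantile normalized apart. The brighter probe of a contig within each set was used. Arrays of a condition were averaged and counted as 1 sample where the median difference between arrays was no larger than that between duplicate spots of 1 array (ratio of 1 or less; merged ratios reached 0.841 in the amplified and 0.897 in the unamplified set, and those kept apart were 1.25 to 2.77 and 1.06). Since a mean of 2 spots varies less than 1 spot, this rule leans toward merging.

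limma 3.58.1 in R 4.3.3 was fitted over the 26 amplified or 7 unamplified samples with 1 coefficient per condition, for contigs well above background throughout 1 or more of the conditions compared. Calls needed an adjusted p under 0.05 and over 4-fold. The scripts were tested on simulated data. Text names the 3 members, 3 other contigs the study names for pollinia, 5 it names for the opposite pattern, its organ markers, and the 5 contigs most correlated with each member. Alternatives were another scaling, background correction, floor, filter, probe, set of samples, replicate rule, slide or scan batch term, and leaving out each array.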

Additional observations from a re-analysis of the deposited data

How the results depend on the processing

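No paired analysis was possible because the labels carry no replicate numbers that tie arrays of different conditions. A scan batch term, fitted where it could be estimated, changed no call of the 3 genes. Of 483 values of the tested differences under alternatives, 458 kept their direction and their side of the threshold. PaAP2-7 on day 1 became called with the 75th percentile (2.15), the deposited log2 table (2.15) and the other probe (2.08). PaMYB-2 on day 3 became called with the 75th percentile (2.13) and the table (2.13). PaMYB-2 on day 15 was not called with normexp (1.84) or the other probe (1.99), nor PaMYB-2 in column with normexp (-1.81). PabHLH-3 turned direction on the other probe in flower minus large bud (0.69), days 1, 3, 8 and 15 (-0.23, -0.72, -0.94, -1.52), Pa bud minus inflorescence (-0.94) and Pa flower minus bud (0.84). With the mean of the probes it turned on days 8 and 15 (-0.28, -0.58), and Pa flower minus bud was not called (-0.70). The cause was not tested. In unamplified arrays PaMYB-2 turned in V3 flower (other probe -0.42, mean of probes -0.11) and in Pa flower minus leaf and root (0.0497 with the 75th percentile, 0.0499 with the deposited values, 0.00982 with a floor of 5, and from -0.29 to 0.13 leaving out 1 array each), none of them called. Of the values under alternatives that were not tested differences, 20 stayed the same and 10 moved. The pollinia minus next condition value of PabHLH-3 was 0.79 on its other probe.

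With the 75th percentile in place of quantiles, the median difference of all contigs moved from 0.01 to -0.20 in flower minus large bud and to 0.11, 0.21, 0.22 and 0.18 on days 1, 3, 8 and 15, and from 0.07 to -0.13 in Pa flower minus bud. The share of calls that were higher went from 40.2% to 25.5% in flower minus large bud, from 58.5% to 71.1%, 62.5% to 78.6% and 62.9% to 77.7% on days 3, 8 and 15, and from 41.7% to 28.6% in Pa flower minus bud. A scan batch term could not be estimated for V3 flower against large buds, pollinated flowers, or unamplified flower against leaf and root. Fits of only the conditions compared lacked residual degrees of freedom where all arrays were merged. Signal near background limits PaAP2-7 in 11 amplified conditions.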
